A study of Mus musculus with 2 samples.

Results

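The common gamma chain family was followed through the cells of the mouse abdominal aorta as 10 named genes of the 27998 listed: the cytokines Il7, Il15 and Il2, and the receptor chains Il2ra, Il2rb, Il2rg, Il7r, Il15ra, Il4ra and Il21r. They were chosen by name as the ligands and receptor chains of this family, and each was read in every cell class of both libraries. The mice were wild-type C57BL/6J, injected with a Lactobacillus casei cell wall extract (LCWE), which causes a vasculitis used as a model of Kawasaki disease, or with phosphate-buffered saline (PBS). Aortas were taken 2 weeks later, and 1 library was made from a pool of 7 LCWE aortas and 1 from a pool of 9 PBS aortas. Age and sex of the mice are not given in the sources used here.

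Cytokines of this family share the receptor chain encoded by Il2rg, the common gamma chain, which signals through the kinase JAK3. Each cytokine is recognised by a private chain: IL-7 by IL-7Rα (Il7r), IL-4 by IL-4Rα (Il4ra) and IL-21 by IL-21R (Il21r), while IL-2 and IL-15 share IL-2Rβ (Il2rb) and add an alpha chain each (Il2ra and Il15ra). IL-15 is usually shown to lymphocytes by a neighbouring cell that carries IL-15Rα on its surface. In lymphoid organs IL-7 and IL-15 come from non-lymphoid cells and keep T and NK cells alive, and IL-2 comes from activated T cells.

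The LCWE library held 5091 cells with a median of 5508 unique molecular identifiers (UMIs, 1 per captured transcript) and the PBS library 5386 cells with a median of 11252. The classes are the authors' deposited ones, 9 broad and 25 fine. Stroma stands for smooth muscle, fibroblast, endothelial, transitional and proliferating stromal cells (1557 LCWE and 5270 PBS cells), and lymphocytes for the T, NK and innate lymphoid class and B cells (2422 and 92 cells). The class names were checked against marker genes: lymphatic endothelial cells (LEC) held 744 CPM of the lymphatic regulator Prox1 and blood endothelial cells (BEC) 10.4 in the LCWE library. In the class the authors named Eosinophil, the eosinophil receptor gene Ccr3 had 2 UMIs (2.93 CPM). Siglecf had 41 of the library's 64 UMIs there (60.1 CPM, against 5.46 in the Neutrophil class). S100a8, a gene typical of neutrophils, had 15797 UMIs (23164 CPM, against 102538 in the Neutrophil class and 154 in fibroblasts). Ccr3 and S100a8 thus go against that name and Siglecf goes with it, so it is used here as the authors' label only. Smooth muscle was 4141 PBS cells but 93 LCWE cells, and the transitional class came from the LCWE library only, so class and library cannot be told apart there.

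A level is the sum of a gene's UMIs over a class, scaled to 1000000 UMIs of that class (CPM). With 1 pooled library per condition there was no replicate and no test. Ranges in brackets are 95% intervals that cover counting error only, so they do not speak of the spread between mice. Levels are compared between classes or libraries for the same gene, never between genes.

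The family's genes lie on 6 chromosomes of mm10 (GRCm38), and 2 pairs are neighbours. Il2ra (chr2:11642807-11693193, plus strand) and Il15ra (chr2:11705290-11734317, plus strand) are 12.1 kb apart, and Il4ra (chr7:125552120-125579474, plus strand) and Il21r (chr7:125603429-125633570, plus strand) are 24 kb apart, with 0 protein-coding genes between the members of either pair. Il7 lies at chr3:7569994-7613760 and Il2 at chr3:37120523-37125959. Il15 lies at chr8:82331632-82403222, Il2rb at chr15:78479256-78495271, Il7r at chr15:9505788-9530176 and Il2rg at chrX:101264378-101268255, all of these on the minus strand. The unstated strand handling of the counting matters for Il7, Il2 and Il4ra, which overlap Gm16685, Adad1 and Gm44876 on the other strand, and Il2ra and Il2rg overlap Gm37881 and Gm20489 on the same strand.

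The starts of the neighbouring pairs are printed because their levels over the cell classes are set side by side further on. They are the RefSeq promoter windows (GRCm38.p6, plus strand, 250 bases before to 50 after the start), restricted to bases outside any annotated gene, and capitals mark CG dinucleotides.
Il2ra (chr2:11642542-11642806): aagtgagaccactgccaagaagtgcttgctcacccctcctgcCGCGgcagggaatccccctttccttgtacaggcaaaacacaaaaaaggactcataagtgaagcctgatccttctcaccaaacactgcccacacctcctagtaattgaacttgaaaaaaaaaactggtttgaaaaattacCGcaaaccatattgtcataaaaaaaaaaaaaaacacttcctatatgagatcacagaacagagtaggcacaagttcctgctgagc
Il15ra (chr2:11705043-11705289): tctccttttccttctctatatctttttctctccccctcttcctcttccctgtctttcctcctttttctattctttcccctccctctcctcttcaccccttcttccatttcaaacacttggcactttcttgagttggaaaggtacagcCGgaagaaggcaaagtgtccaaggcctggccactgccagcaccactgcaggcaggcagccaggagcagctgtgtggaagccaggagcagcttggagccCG
Il4ra (chr7:125552021-125552119): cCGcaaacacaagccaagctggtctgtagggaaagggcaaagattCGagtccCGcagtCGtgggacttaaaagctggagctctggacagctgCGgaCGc
Il21r (chr7:125603179-125603428): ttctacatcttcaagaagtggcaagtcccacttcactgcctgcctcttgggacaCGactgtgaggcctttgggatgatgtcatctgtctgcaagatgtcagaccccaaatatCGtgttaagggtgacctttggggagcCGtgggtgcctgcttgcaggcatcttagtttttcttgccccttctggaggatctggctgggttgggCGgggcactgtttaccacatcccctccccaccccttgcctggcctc

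RefSeq windows were found for 7 of the 10 genes (not Il7, Il15 or Il2rb). Over the whole 300-base window Il4ra held 25 CG dinucleotides, at or above the number in 83.1% of 32851 promoters. The other windows held fewer: 7 for Il21r, 3 each for Il2ra and Il2rg, 2 for Il2 and 1 for Il7r, against a median of 7 over all promoters, and Il15ra had 2 windows with 6 and 15. A STAT site, the letters TTCNNNGAA (its own reverse complement), was found in 8.3% of promoters and in 1 of these genes. It lay 142 bases before the RefSeq start of Il7r, inside the longer annotated gene, and is shown in capitals on the minus strand with 10 bases on each side.
Il7r (chr15:9530000-9530028): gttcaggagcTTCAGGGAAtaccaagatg
An interferon response core, found on either strand in 3.44% of promoters, and an NF-kB site, in 0.155%, had no match in the windows of the 7 genes.

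In the LCWE library Il7 and Il15 were higher in the stroma, and Il2 and 5 of the 7 receptor chains were higher in the lymphocytes. Among all 14020 genes with at least 20 UMIs over both compartments, 35.6% were at least 2-fold higher in stroma and 15.5% at least 2-fold lower. Of the 10 family genes 2 were thus higher in stroma, a smaller share than over all genes, and 6 were lower, a larger one: Il2, Il2ra, Il2rb, Il2rg, Il7r and Il21r. The median log2 ratio of stroma over lymphocytes was -2.36 for the family and 0.34 for all genes. Il15ra (1.88-fold, 1.47 to 2.44) and Il4ra (0.919-fold, 0.837 to 1.01) lay within 2-fold. Il7 (120 stromal against 2 lymphocyte UMIs) would not have reached the minimum of 20 UMIs at its lymphocyte level in both compartments. In the PBS library 19.7% of genes were at least 2-fold higher in stroma and 19.3% lower. Of the 8 family genes with a ratio there, 0 were higher and 7 lower, with 92 lymphocytes behind the comparison. At stromal levels in both compartments, Il2ra (8 stromal against 16 lymphocyte UMIs), Il7r (16 against 55) and Il21r would not have reached 20 UMIs. The count of 7 thus depends in part on this minimum. Sums under 3 UMIs were raised to 3 for these calls, which is 6.55 CPM in those lymphocytes. Il7 (80 stromal UMIs, 1.29 CPM, against 0 in lymphocytes) and Il15ra (333, 5.38 CPM, against 1) lay below that and had no ratio. Il15 (427 against 2 UMIs) stayed within 2-fold. The count of 0 thus does not place these genes outside the stroma, which held 98.9% of all PBS UMIs.

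**Figure D1:**
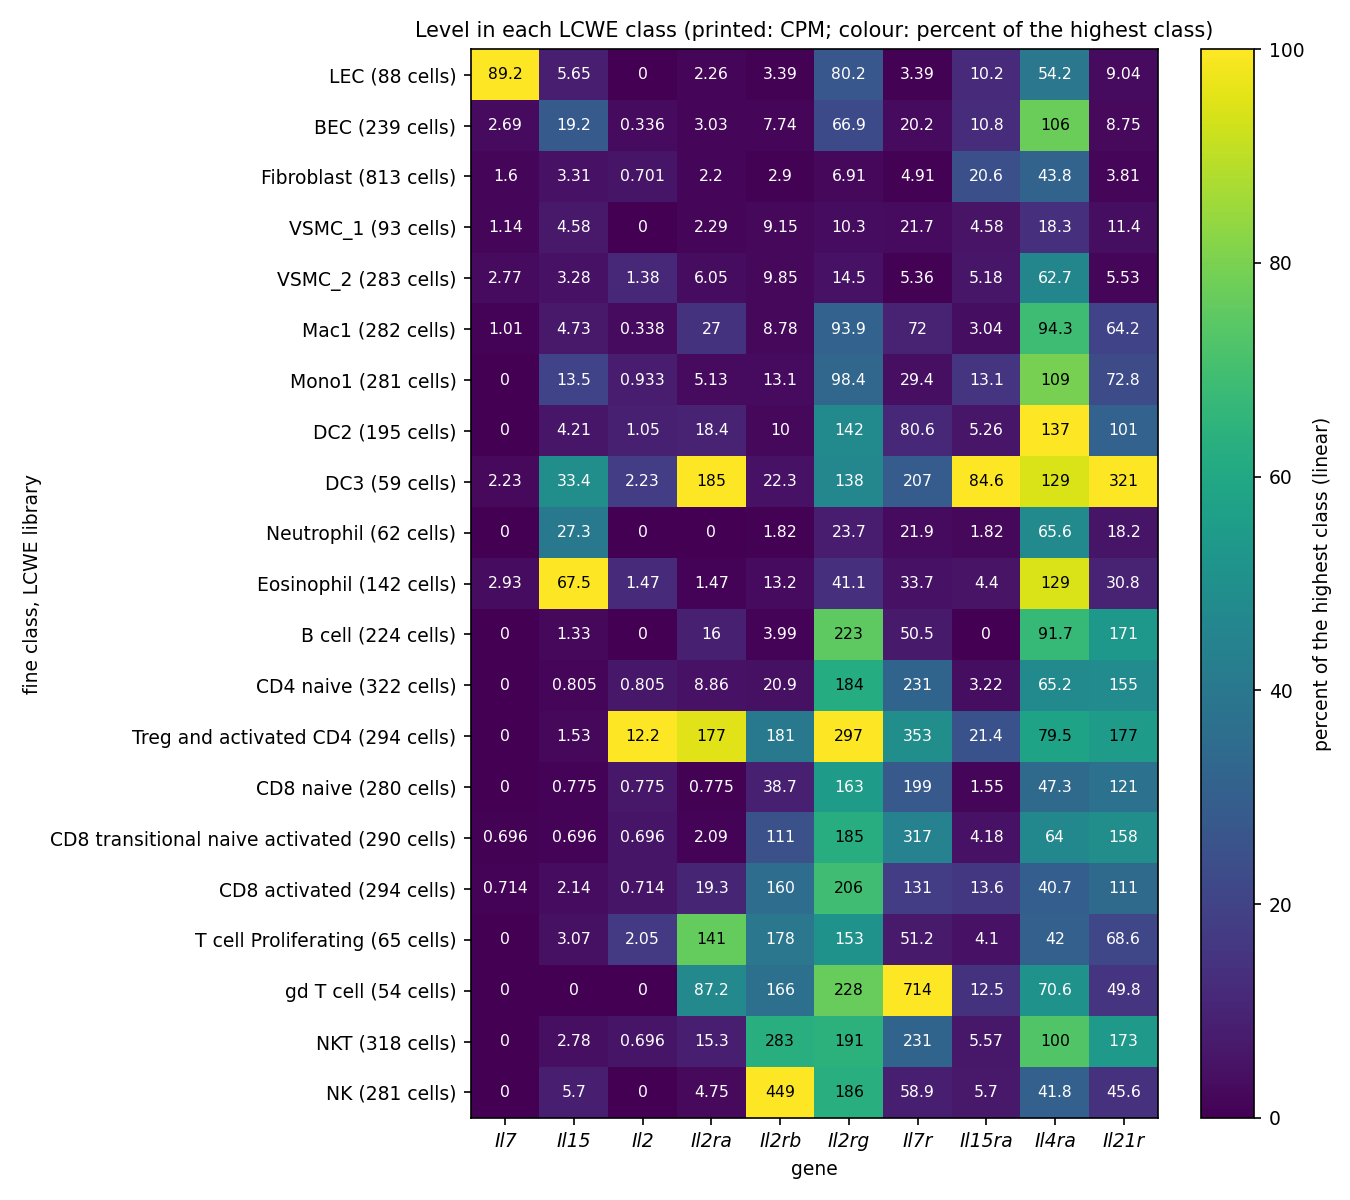
Levels of the 10 genes in the 21 fine classes of the LCWE library with at least 50 cells. Each cell prints the level in CPM and its colour gives it as a percent of the gene's highest class on a linear scale; Il7 reaches 89.2 CPM in LEC and at most 2.93 in any other class, while Il4ra is at or above 18.3 CPM in every class.

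Il7, the survival cytokine of naive T cells, had its highest level in LEC. In the LCWE library LEC held 79 of 129 Il7 UMIs and 89.2 CPM (70.6 to 111), and 46 of 88 LEC had at least 1 UMI. In the PBS library 29 LEC held 46 of 80 UMIs and 121 CPM (88.4 to 161). The 2 libraries' LEC levels were within counting error of each other, with a ratio of LCWE over PBS of 0.739 (0.508 to 1.09). LEC exceeded BEC 33.2-fold (16 to 79.5) in the LCWE library and 28.7-fold (12.9 to 75.4) in the PBS library, so the same endothelial contrast appeared in both. LEC were 1.73% of LCWE cells and 0.538% of PBS cells.

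Outside LEC the Il7 levels were low, and the UMIs were spread over larger classes: PBS smooth muscle held 16 of the 80 PBS UMIs at 0.299 CPM. Fibroblasts had 16 UMIs and 1.6 CPM (LCWE) against 11 UMIs and 1.81 CPM (PBS), and transitional cells 16 UMIs and 2.77 CPM. The T, NK and innate lymphoid class had 2 UMIs among 2198 LCWE cells (median 3986 UMIs per cell, against 7420 in LEC), a share of cells of 0.091% against 52.3% in LEC. Thinned to 1500 UMIs per cell, the LEC share was 13.2% and the T, NK and innate lymphoid share 0.0375%. Of the 21 fine LCWE classes, 11 were at 0 UMIs of Il7.

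Il15, the survival cytokine of NK and memory CD8 T cells, came from blood endothelium and from myeloid cells. PBS BEC held 111 UMIs and 66.6 CPM (54.8 to 80.2), and LCWE BEC 57 UMIs and 19.2 CPM (14.5 to 24.8). The LCWE level was therefore 3.48-fold lower (2.5 to 4.87). The share of BEC with an Il15 UMI was 37.8% (PBS) and 21.8% (LCWE) at medians of 5846 and 10121 UMIs per cell, and 10.9% and 4.23% after thinning to 1500 UMIs. In LCWE T, NK and innate lymphoid cells, which should hold little Il15, the unthinned share was 0.819%. Ackr1, a gene of venular endothelium, had a UMI in 25 LCWE BEC and 0 UMIs in PBS BEC. Leaving those cells out, the Il15 level was 3.31-fold lower (2.36 to 4.69), so the difference was of like size in BEC without that transcript. Fibroblasts held Ackr1 too (66 CPM in LCWE and 22.7 in PBS cells), so this split goes by the transcript only.

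Fibroblasts followed the same direction for Il15, with 33 UMIs and 3.31 CPM (LCWE) against 45 UMIs and 7.4 CPM (PBS), 2.24-fold lower (1.4 to 3.62). In smooth muscle 4 LCWE UMIs gave 4.58 CPM and 265 PBS UMIs 4.96 CPM, a ratio of 0.924 whose interval (0.25 to 2.39) is wide. Because smooth muscle was most of the PBS library, its low level still made up 61.3% of the 432 PBS UMIs of Il15, while BEC, with 4.03% of the cells, held 25.7%. Among LCWE immune cells the Eosinophil class was highest at 67.5 CPM (49.4 to 90), above the neutrophil class at 27.3 CPM (15.3 to 45.1). The dendritic class DC3, marked here by 4535 CPM of the migration receptor gene Ccr7, stood at 33.4 CPM (18.7 to 55.1) and the monocyte class Mono1 at 13.5 CPM (9.06 to 19.4). Macrophages (Mac1) were lower, at 4.73 CPM (2.59 to 7.94): the Eosinophil class exceeded them 14.3-fold (7.7 to 28.1). DC3, the neutrophil class, BEC and Mono1 were neighbours in this order that did not differ beyond counting error.

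Il2, the growth factor of activated T cells, was rare, with 46 LCWE and 66 PBS UMIs. In the LCWE library 16 UMIs lay in the class of regulatory and activated CD4 T cells, at 12.2 CPM (6.99 to 19.9). They came from 9 of 294 cells, and 1 cell held 8 of them; without that cell the level was 6.18 CPM. NK cells and gamma delta T cells had 0. In the PBS library 54 of the 66 UMIs were spread singly over 54 of 4141 smooth muscle cells, a level of 1.01 CPM (0.759 to 1.32). The 75 PBS T, NK and innate lymphoid cells held 5 UMIs and 12.3 CPM, which is 12.2-fold higher (3.8 to 30.2). The smooth muscle share of cells with an Il2 UMI was 1.3% and that of PBS fibroblasts 0.346%, at medians of 11880 and 6215 UMIs per cell.

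**Figure D2:**
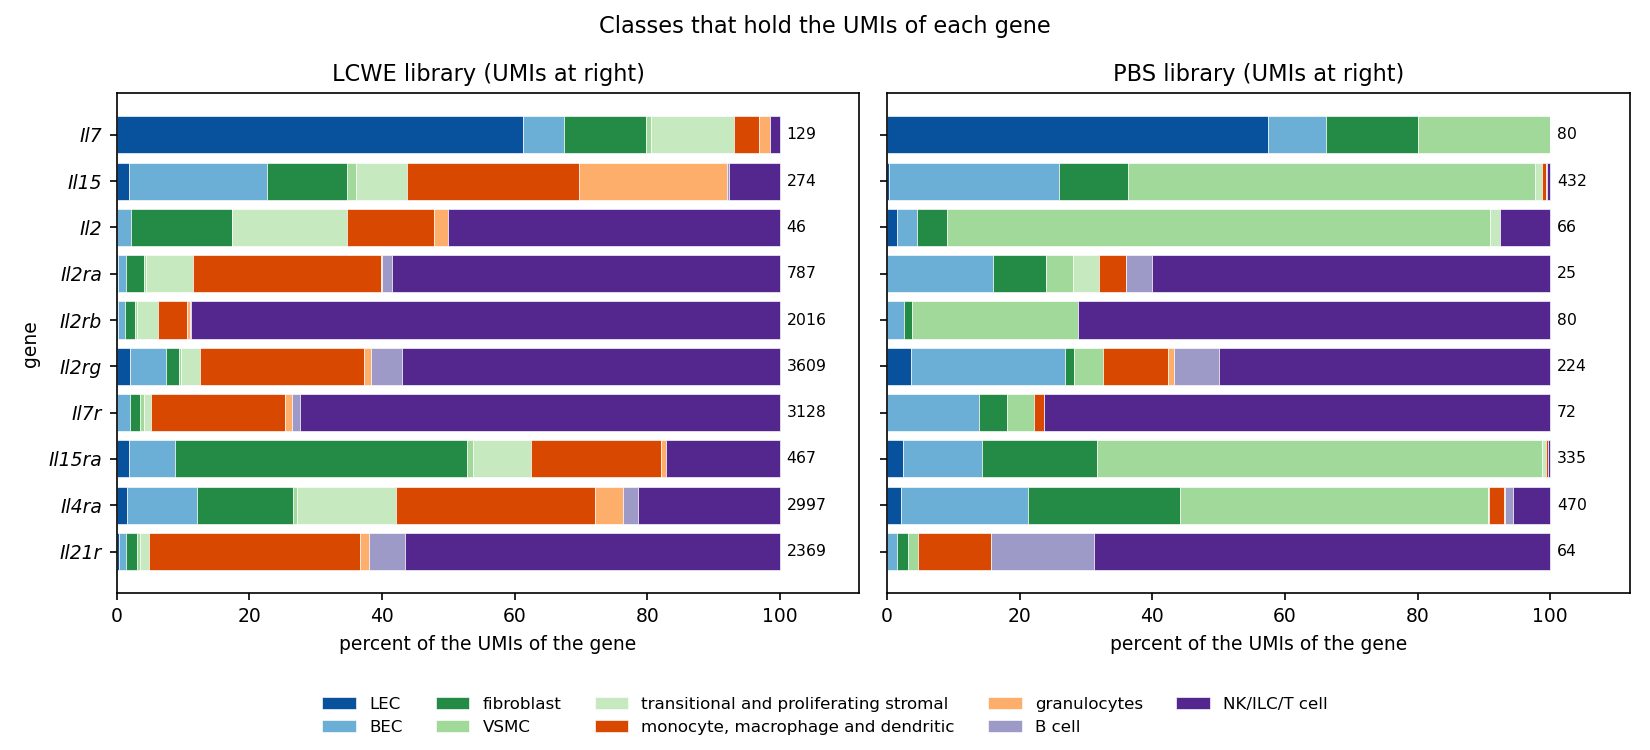
Where the UMIs of each gene were found, as stacked bars of percent per cell class for the LCWE library (left) and the PBS library (right), with the number of UMIs at the right end of each bar. LEC hold 61.2% and 57.5% of Il7, and fibroblasts 44.1% of LCWE Il15ra.

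Il7r, which encodes the IL-7 receptor alpha chain, was led by gamma delta T cells. In the LCWE library they held 172 UMIs and 714 CPM (612 to 829), and 87% of the 54 cells had a UMI. Regulatory and activated CD4 T cells followed at 353 CPM (322 to 387) and transitional CD8 T cells at 317 (289 to 348), and these 2 did not differ beyond counting error. Naive CD4 T cells and NKT cells were level at 231 CPM each, and naive CD8 T cells stood at 199 (176 to 225). Activated CD8 T cells were lower at 131 CPM (112 to 151), and NK cells (58.9), proliferating T cells (51.2) and B cells (50.5) were at the foot of the lymphocyte order. Gamma delta T cells exceeded NK cells 12.1-fold (9.02 to 16.5). Myeloid cells also held the transcript: DC3 207 CPM (167 to 254), DC2 80.6 (68.3 to 94.4) and Mac1 72 (62.6 to 82.3).

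Il2rb, the beta chain that IL-2 and IL-15 share, ran in another order. NK cells led with 472 UMIs and 449 CPM (409 to 491), and 74.4% of them had a UMI against 1.34% of B cells, at medians of 3397 and 2818 UMIs per cell. NKT cells followed at 283 CPM (256 to 312). Regulatory and activated CD4 T cells (181), proliferating T cells (178), gamma delta T cells (166) and activated CD8 T cells (160) formed a group whose neighbours did not differ beyond counting error. In CD8 T cells the level went from 38.7 CPM in the naive class to 111 in the transitional and 160 in the activated class, and the last exceeded the first 4.13-fold (3.03 to 5.73). Naive CD4 T cells had 20.9 CPM (13.7 to 30.7), 21.4-fold (14.4 to 33.1) below NK cells. The 16 PBS NK cells stood at 391 CPM (260 to 565), which overlaps the LCWE interval.

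**Figure D3:**
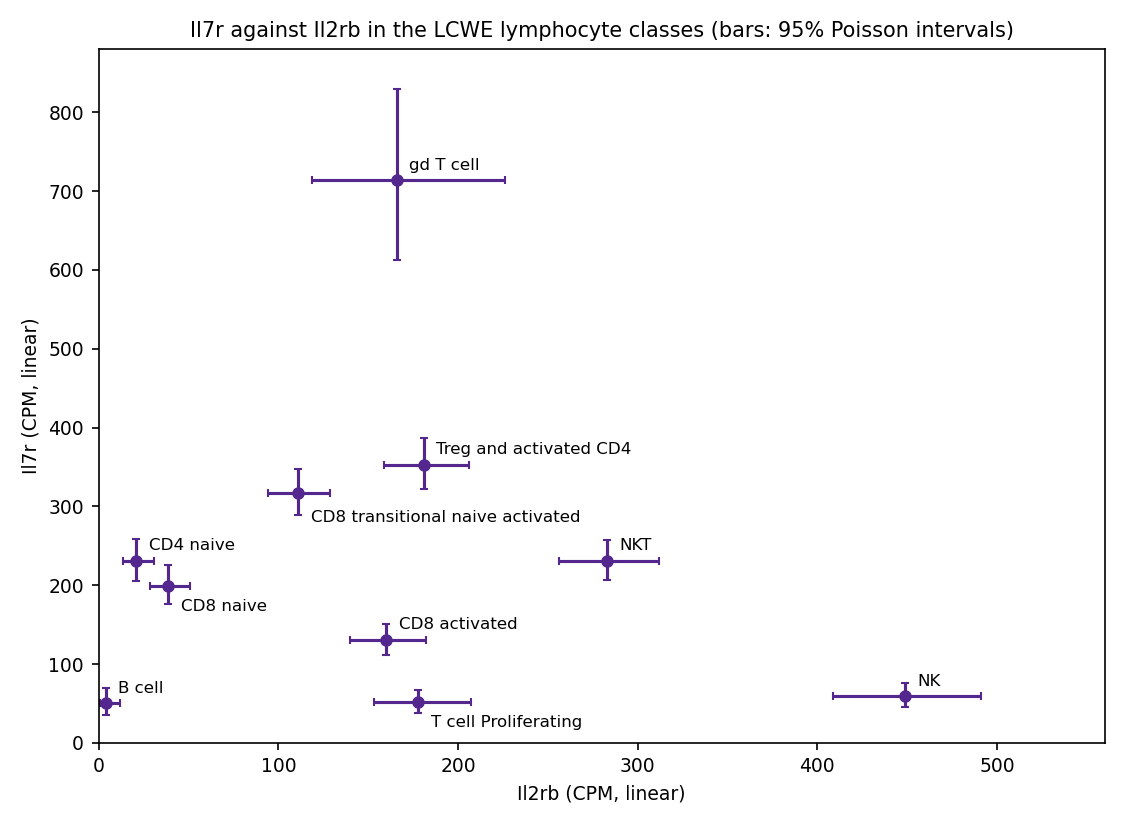
Il7r level (vertical axis, CPM) against Il2rb level (horizontal axis, CPM) in the 10 LCWE lymphocyte classes, on linear axes with bars for the 95% Poisson intervals. Gamma delta T cells stand alone in Il7r at 714 CPM, NK cells in Il2rb at 449 CPM, and naive CD4 and CD8 T cells hold Il7r with little Il2rb.

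Il2ra, the alpha chain that makes the IL-2 receptor high in affinity, was led by dendritic and CD4 T cells. DC3 stood at 185 CPM (147 to 229), regulatory and activated CD4 T cells at 177 (155 to 202) and proliferating T cells at 141 (119 to 167), followed by gamma delta T cells at 87.2 (54 to 133). The CD4 class exceeded naive CD4 T cells 20-fold (11 to 40.6), and DC3 exceeded DC2 10-fold (6.68 to 15.4). Of the 91 regulatory and activated CD4 cells with an Il2ra UMI, 54 (59.3%) also had a UMI of Foxp3, the regulatory T cell factor. Few cells carried many of the UMIs: 1 proliferating T cell held 35 of that class's 138, 1 Mac1 cell 17 of 80, and 1 proliferating stromal cell 19 of 20. The last value leaves 1 Il2ra UMI for the other 40 proliferating stromal cells. LCWE fibroblasts had 22 UMIs in 10 cells, up to 7 in a cell, all among the 481 cells with a UMI of the adhesion gene Chl1, and 0 in the 332 cells without. The cells with Chl1 were also deeper, with a median of 14431 UMIs per cell against 7502.

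Il2rg, the shared gamma chain, was broad. In the LCWE library 17 of 21 classes reached at least 10% of the highest level, which was 297 CPM (268 to 328) in regulatory and activated CD4 T cells. The other T and NK classes and B cells lay between 153 and 228 CPM, and each was within counting error of its neighbour in the order. Dendritic cells stood at 142 (DC2) and 138 CPM (DC3), monocytes and macrophages at 98.4 and 93.9. Endothelial cells came next, with 80.2 CPM (62.6 to 101) in LEC and 66.9 CPM (58 to 76.9) in BEC. Fibroblasts were lowest, at 6.91 CPM (5.38 to 8.75).

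Il21r, the IL-21 receptor, was highest in DC3 at 321 CPM (271 to 378), 3.19-fold (2.55 to 3.98) above DC2. Regulatory and activated CD4 T cells (177), NKT cells (173), B cells (171), transitional CD8 T cells (158) and naive CD4 T cells (155) followed without a step beyond counting error. NK cells were low at 45.6 CPM (33.6 to 60.5), 3.39-fold (2.46 to 4.75) below naive CD4 T cells, so NK cells were first for Il2rb and low for both Il7r and Il21r. The PBS stroma held 3 Il21r UMIs among 5270 cells.

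Il15ra, which carries IL-15 on the presenting cell, had more of its LCWE UMIs in fibroblasts than in any other broad class. They held 206 of 467 (44.1%), at 20.6 CPM (17.9 to 23.7), while in the PBS library smooth muscle held 225 UMIs and fibroblasts 58. DC3 had the highest level, 84.6 CPM (59.9 to 116) from 38 UMIs, 16.1-fold (7.86 to 36.2) above DC2. The ligand gene followed the same split, Il15 being 7.93-fold (3.16 to 21.6) higher in DC3 than in DC2, and 6 of 59 DC3 cells (10.2%) held a UMI of both genes. In BEC the share with both was 8.76% (PBS) and 4.6% (LCWE). B cells had 0 Il15ra UMIs among 224 cells.

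Il4ra, the IL-4 and IL-13 receptor chain, was the most even of the 10. The 21 LCWE classes all lay between 18.3 and 137 CPM, from smooth muscle at the foot to DC2 at the top. At the head of the order DC2 (137), DC3 (129), the Eosinophil class (129), Mono1 (109), BEC (106) and NKT cells (100) were each within counting error of the next. Transitional cells, which occur in the LCWE library only, held 363 UMIs and 62.7 CPM (56.4 to 69.5), 15.4-fold (13 to 18.3) above PBS smooth muscle at 4.08 CPM. The cells compared there differ in class and library together. In 1 transitional cell there were 22 UMIs. Proliferating stromal cells had 85 UMIs in 41 LCWE cells (79.8 CPM) and 1 UMI in 15 PBS cells (3.5 CPM).

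Between the libraries, fibroblasts showed more of the family's receptor transcripts after LCWE. Of all 12357 genes measured in fibroblasts, 10.4% were at least 2-fold higher in the LCWE library and 7.31% at least 2-fold lower. Of 9 family genes measured there, 7 were higher, which is every receptor chain, and Il15 was lower. The median log2 ratio was 2.16 against 0.04 for all genes. That median is the Il2ra value, from 22 LCWE UMIs and 2 PBS UMIs raised to 3. Il2ra, Il2rb, Il2rg, Il7r and Il21r reached the minimum of 20 UMIs through their LCWE UMIs alone. At their PBS levels in both libraries they would not have been measured. The count of 7 thus depends on this minimum, and the median on the floor as well. The chains with many UMIs were Il4ra, 43.8 against 17.8 CPM (2.47-fold, 1.99 to 3.07), and Il15ra, 20.6 against 9.53 CPM (2.16-fold, 1.61 to 2.95). The other 5 were close to 0 in PBS fibroblasts: Il2rg 69 against 3 UMIs (14-fold, 4.6 to 69.6), Il7r 49 against 3 (9.95-fold, 3.21 to 49.9), Il21r 38 against 1, Il2rb 29 against 1 and Il2ra 22 against 2. Fibroblasts with a Chl1 UMI had more Il4ra (49.9 against 29.4 CPM, 1.7-fold, 1.34 to 2.17) and more Il15ra (23 against 15 CPM, 1.53-fold, 1.1 to 2.19) than those without. In fibroblasts without Chl1 the LCWE level was 1.65-fold (1.23 to 2.21) higher for Il4ra and 1.58-fold (1.04 to 2.37) for Il15ra, so neither passed 2-fold.

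Endothelial cells split by gene. There 10.2% of 10925 genes were at least 2-fold higher in the LCWE library and 5.66% lower. Of 8 family genes 4 were higher (Il2rb, Il2rg, Il7r and Il21r) and 2 lower (Il15 and Il15ra). Il2rb (26 against 2 UMIs) and Il21r (34 against 1) would not have reached the minimum of 20 UMIs at their PBS levels in both libraries. Without the 5% of cells with the highest doublet score Il2rg was the 1 gene still counted as higher (log2 ratio 1.14 against 1.26 with all cells): Il7r was at 0.76, and Il2rb and Il21r, at 1.34 each, had too few UMIs. Il2rg stood at 70 CPM in LCWE and 29.3 in PBS cells (2.39-fold, 1.8 to 3.21), in BEC at 66.9 and 31.2 (2.14-fold, 1.57 to 2.97) and in LEC at 80.2 and 21 (3.82-fold, 1.84 to 9.19). In BEC alone, with 11.5% of 10319 genes at least 2-fold higher and 6.36% lower, the same 4 of 7 measured family genes were higher and the same 2 lower. BEC are part of the pooled class, so this is not a separate count. Il2rb (23 against 2 UMIs) and Il21r (26 against 1) would again not have reached 20 UMIs at their PBS levels in both libraries. Il7r in BEC had 60 LCWE UMIs, 15 of them in 1 cell, against 10. Il4ra in BEC was 106 against 54 CPM (1.95-fold, 1.54 to 2.5). Il15ra went the other way, 10.6 against 23.4 CPM, 2.21-fold lower (1.42 to 3.43), so LCWE endothelium held less of both Il15 and its alpha chain while LCWE fibroblasts held less Il15 and more Il15ra. Cells with both Il4ra and Il2rg, the chains of the type I IL-4 receptor, were 28% of LCWE BEC (22.4 to 34.2) and 5.99% of PBS BEC (3.23 to 10). LCWE BEC were also deeper, with a median of 10121 UMIs per cell against 5846, and shares with both genes were not thinned. In LCWE fibroblasts 25 of the 276 cells with Il4ra also had Il2rg (9.06%).

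**Figure D4:**
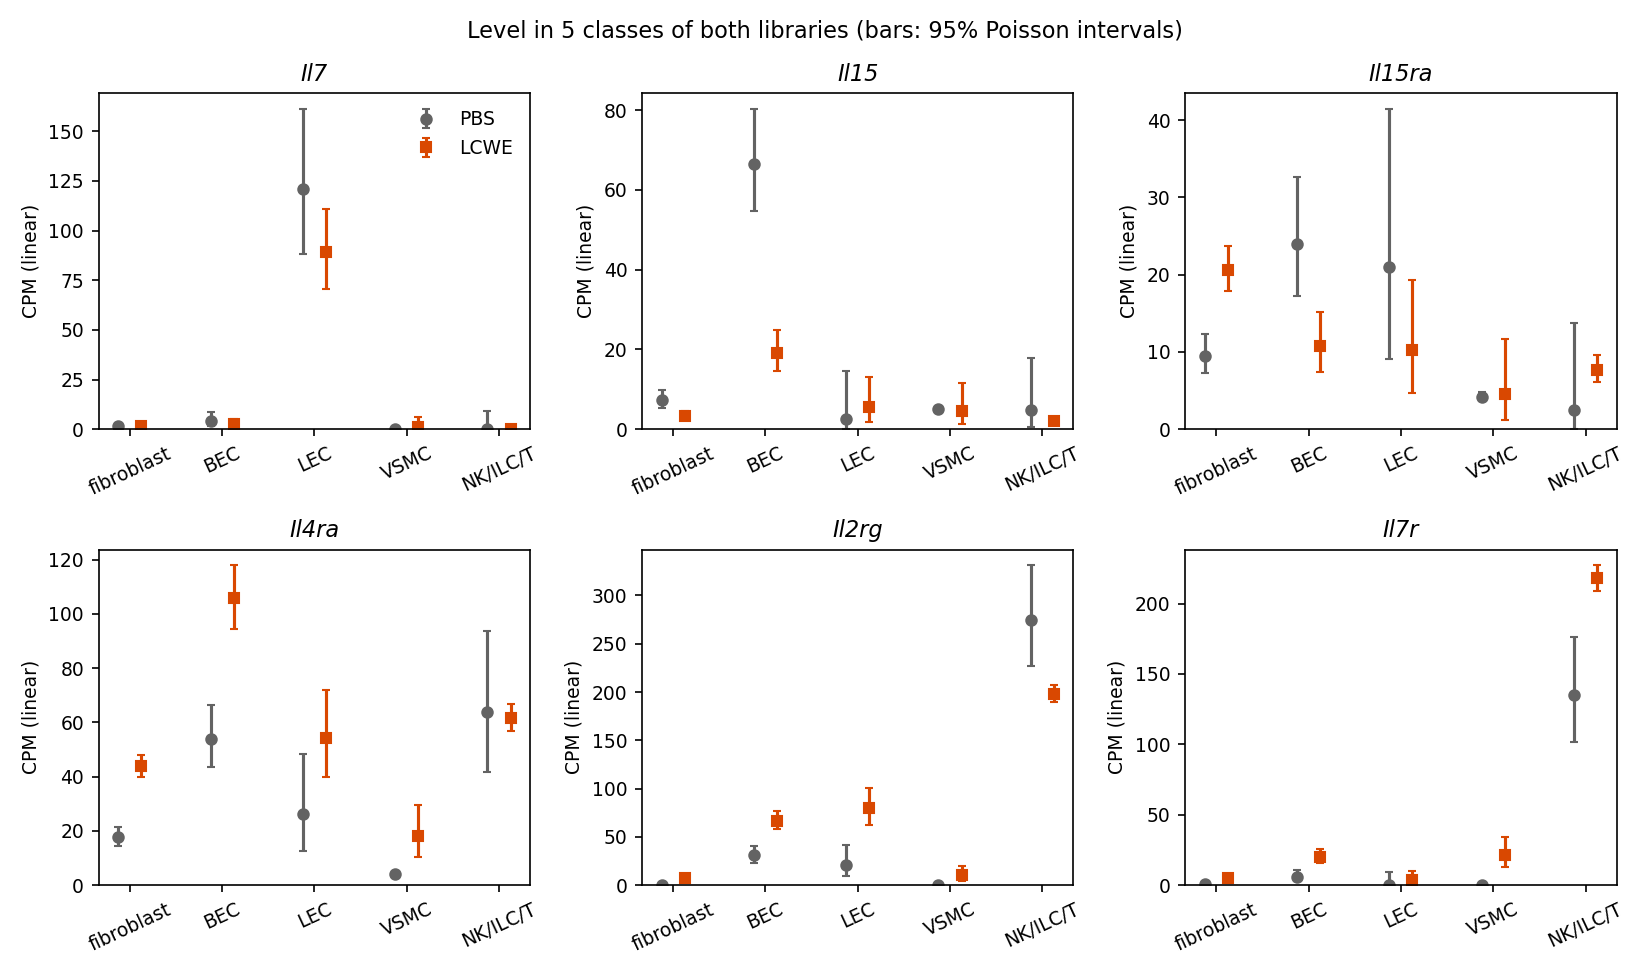
Levels in CPM (linear axes from 0) of 6 genes in fibroblasts, BEC, LEC, smooth muscle (VSMC) and T, NK and innate lymphoid cells; grey circles are the PBS library, orange squares the LCWE library, and bars the 95% Poisson intervals. Il15 stands at 66.6 CPM in PBS and 19.2 CPM in LCWE BEC, Il15ra is higher in LCWE fibroblasts and lower in LCWE BEC, and the Il7 intervals of the LEC of both libraries overlap.

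Smooth muscle and lymphocytes gave fewer differences. In smooth muscle, where 12.4% of 12817 genes were at least 2-fold higher in LCWE cells and 3.6% lower, 3 of the 5 family genes with a ratio were higher. They were Il4ra (18.3 against 4.08 CPM, from 16 and 218 UMIs), Il2rb (8 and 20 UMIs) and Il7r (19 and 3 UMIs). At its PBS level in both libraries Il7r would not have reached the minimum of 20 UMIs. The T, NK and innate lymphoid class had 3.28% of 10602 genes at least 2-fold higher and 7.97% lower, and of the family 0 of 9 family genes were higher and 2 lower. These were Il2, 2.21 against 12.3 CPM (5.55-fold lower, 1.65 to 14.9, 23 and 5 UMIs), and Il15, which had 2 PBS UMIs. Il7r was 1.61-fold higher (1.23 to 2.14) and Il2rg 1.39-fold lower (1.14 to 1.68), and the mix of T and NK classes differs between the 2 libraries.

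Lymphocyte and myeloid transcripts were also higher in LCWE than in PBS fibroblasts, pooled endothelial cells and smooth muscle. The summed level of 5 T cell markers of 6 listed (Cd3d, Cd3e, Cd3g, Cd2 and Cd5; Trbc2 was not matched) was 19.6 CPM in LCWE and 1.81 in PBS fibroblasts, 79 and 16.1 in endothelial cells, and 132 and 1.16 in smooth muscle. None of the 5 was at 0 in those LCWE classes, while Cd5 was at 0 in PBS fibroblasts and Cd3e in PBS endothelial cells. Split by endothelial class, the T cell markers stood at 82.7 (LCWE) and 6 CPM (PBS) in BEC, but at 66.6 and 60.3 CPM in LEC. The 23 marker UMIs of PBS LEC were all of Cd2. The 5 macrophage markers (C1qa, C1qb, C1qc, Adgre1 and Csf1r) summed to 82.9 against 12.7 CPM in fibroblasts and 33.7 against 0.977 in endothelial cells. In PBS fibroblasts all of them but Csf1r were at 0, so the 12.7 CPM came from Csf1r alone. None was at 0 in LCWE fibroblasts. The 5 granulocyte markers gave 336 against 2.3 and 176 against 4.89 CPM. For the 5 NK markers the sums were 17.5 against 0.657 CPM in fibroblasts and 31.1 against 0 in endothelial cells. As a percent of the level in T, NK and innate lymphoid cells, the T cell markers stood at 0.882% in LCWE fibroblasts, and Il2rb at 1.69%, Il7r at 2.25%, Il21r at 2.95%, Il2rg at 3.49% and Il2ra at 4.97%. In LCWE endothelial cells the markers stood at 3.55%, Il2rb at 3.91%, Il2ra at 6.44%, Il21r at 6.83%, Il7r at 7.5% and Il2rg at 35.3%. In LCWE smooth muscle the markers were at 5.91%, Il2ra at 5.17%, Il2rg at 5.2%, Il2rb at 5.31%, Il21r at 8.87% and Il7r at 9.99%. The part of these transcripts in the stromal receptor levels was not tested.

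**Figure D5:**
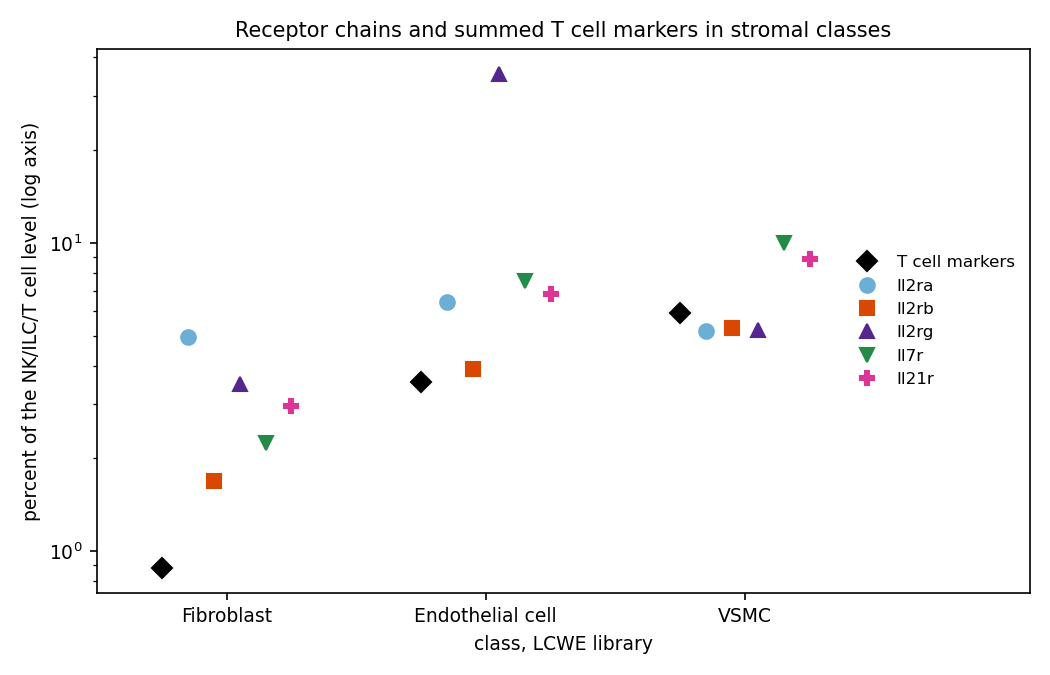
Level of 5 receptor chains and of the summed T cell markers (black diamonds) in LCWE fibroblasts, endothelial cells and smooth muscle, each as a percent of its level in LCWE T, NK and innate lymphoid cells on a log axis. Il2rg in endothelial cells, at 35.3%, stands far above the markers at 3.55%, and in smooth muscle the chains run from 5.17% (Il2ra) to 9.99% (Il7r) around the markers at 5.91%.

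Cells that held transcripts of a whole receptor were found by co-detection. UMIs of both Il2rb and Il2rg, the signalling pair for IL-2 and IL-15, were found in 53.8% of proliferating T cells, 37.7% of NKT cells, 33.5% of NK cells and 29.9% of regulatory and activated CD4 T cells. Proliferating T cells were also the deepest of these classes, with a median of 12440 UMIs per cell against 3397 in NK cells, and in LCWE fibroblasts the share was 0.861%. The pair Il7r and Il2rg was found in 46.3% of gamma delta T cells and 2.85% of NK cells. All 3 IL-2 receptor chains were together in 45 of 294 regulatory and activated CD4 cells (15.3%) and 12 of 65 proliferating T cells (18.5%). In DC3, where 62.7% of cells held Il2ra, all 3 chains were together in 3 of 59 cells (5.08%), and Il2rb stood at 22.3 CPM.

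Among other genes of the pathway, 24 in all, the remaining ligands were rare. Il4 had 3 UMIs in LCWE lymphocytes, Il21 7, Il13 8 and Il9 0. The exception was Tslp, which encodes an epithelial and stromal cytokine that signals through IL-7Rα: 161 stromal UMIs at 7.46 CPM against 5 lymphocyte UMIs in the LCWE library, 16.6-fold higher (6.98 to 51.9). In that comparison 4 of 20 measured pathway genes were at least 2-fold higher in stroma, below the 35.6% of all genes, and 10 lower, above the 15.5%, among them Jak3 (3.81-fold lower, 3.14 to 4.65), Jak1 (2.51-fold lower) and Stat5a (2.51-fold lower). Il13ra1, which pairs with IL-4Rα in the type II receptor that needs no gamma chain, was 23-fold (16.6 to 33) higher in stroma. Among the genes counted there, Tslp, Il13ra2 and Il9r would not have reached 20 UMIs at their lower level in both compartments. In fibroblasts 2 of 17 measured pathway genes were at least 2-fold higher in the LCWE library, Il13ra1 (81.7 against 32.5 CPM) and Jak3 (5.21 against 1.31 CPM), and 2 were lower, both counts near the 10.4% and 7.31% of all genes. The lower 2 encode feedback inhibitors of cytokine signalling, Socs1 (46 against 145 CPM) and Socs3 (287 against 694 CPM). Endothelial cells, with 10.2% of all genes higher and 5.66% lower, had 4 of 17 higher, Il13ra1 (57.5 against 23 CPM), Jak1, Jak3 and Tslp, and 1 lower, Cish, a STAT5 target (29 against 74.3 CPM, 2.56-fold lower, 1.99 to 3.29). In T, NK and innate lymphoid cells 4 of 19 were higher and 1 lower, against 3.28% and 7.97% of all genes. Among the higher was Foxp3 with 272 against 0 UMIs (at least 3.55-fold higher, against a floor of 3 UMIs over the class). The lower gene was Il13 with 8 against 13 UMIs. Neither Foxp3 nor Il13 would have reached the minimum of 20 UMIs at its lower level in both libraries.

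Over the 21 LCWE classes with at least 50 cells, the pairs of family genes with the most alike levels were Il7r with Il21r and Il2rg with Il21r (Pearson r of log2(CPM + 1) 0.84 each), and the least alike to Il7r was its ligand gene Il7 (r = -0.59). The neighbours on the chromosome were less alike, with r of 0.42 for Il2ra and Il15ra and 0.36 for Il4ra and Il21r. These are descriptions over classes of 1 library that differ in depth. Il7 was at 0 in 11 of the 21 classes and at most 2.93 CPM outside LEC, so LEC weigh heavily in its r values. By the same measure, the gene closest to Il7 was Wipf3 (0.88, as for Chp2 and Meox1), to Il15 Slc7a11 (0.85), to Il2ra Areg (0.88) and to Il2rb Sh2d2a (0.94). For Il2rg it was Cdc42se2 (0.93), for Il7r Gpr183 (0.92) and for Il21r Crlf3 (0.93). The closest genes to Il15ra (Spg11, 0.80) and Il4ra (Lrrc8d, 0.76) were less alike.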

How the data were processed

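The authors deposited raw UMI counts per gene and cell from 1 LCWE and 1 PBS library made with 10x 3′ V3 chemistry, per the labels. Cell Ranger 3.0.2 and mm10 are named in the submitters' processing notes. The deposited cell table gave the authors' classes, the percent of mitochondrial UMIs and a doublet score, whose caller is not given in the sources used here. All 10477 deposited cells were kept; 8 cell barcodes occur in both libraries.

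Counts were summed per class and library and scaled to CPM with Python 3.11.15, numpy 2.4.6, scipy 1.17.1 and pandas 2.3.3, and plotted with matplotlib 3.10.9. Intervals (95%) were exact Poisson for levels, Clopper-Pearson for shares of cells, and conditional binomial for ratios. PCR and capture error are not covered. A gene was measured in a comparison with at least 20 UMIs over both groups, and counted as higher or lower at 2-fold or more. Sums under 3 UMIs were raised to 3 for that call, the ratio nearer to 1 was used, and no ratio was given where both sums were under 3 or the direction turned. That last part was chosen after seeing the data. The ratio calculation was tested on simulated data. Shares of cells with a UMI of a single gene were also computed as their expectation when each cell is thinned to 1500 UMIs. All 10 genes are named. Genes of the pathway list are named by fold and UMIs, and the most alike genes by r over classes, among genes with at least 100 UMIs. The genes and lists were chosen with earlier results of these data known.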

Additional observations from a re-analysis of the deposited data

Results flagged for a closer look

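The Il2rg ratio of LCWE over PBS ran in opposite directions in stroma and lymphocytes. It was higher in fibroblasts (6.91 against 0.493 CPM) and lower in the T, NK and innate lymphoid class (198 against 275 CPM), a gap of 4.29 on the log2 scale. Endothelial cells (70 against 29.3 CPM) differed from the same lymphocyte class by 1.73 on the log2 scale. The Il15ra ratio was higher in fibroblasts (20.6 against 9.53 CPM) and lower in endothelial cells (10.6 against 23.4 CPM), a gap of 2.26 on the log2 scale. With 1 library per condition, these differences between classes were not tested.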

How the results depend on the processing

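No paired analysis was possible because each condition had 1 library. No ratio of 2-fold or more changed direction under the alternatives run; the endothelial log2 ratio of Il7, within 2-fold, went from -0.20 to 0.38 with cells weighted equally. Among the recomputed log2 ratios 278 stayed within the counting interval and 30 did not, and among the recomputed counts of family genes 94 stayed within 1.5 times and 20 did not. In fibroblasts the 7 higher genes became 1 without Chl1-positive cells, where fewer genes reach 20 UMIs, 4 where the whole interval had to pass 2-fold and 4 at a minimum of 50 UMIs; the 1 lower gene became 0 by the interval rule. In endothelial cells the 4 higher genes became 1 without the 5% of cells with the highest doublet score, 1 by the interval rule and 2 at 50 UMIs, and the 2 lower became 1 by the interval rule. Without the high-scoring cells the endothelial log2 ratio of Il7r was 0.76; the cause was not tested. In smooth muscle the 3 higher genes became 1 without high-scoring cells, 6 at a minimum of 10 UMIs and 1 at 50. In the T, NK and innate lymphoid class the 0 higher genes became 1 without the top cell of each gene (Il2ra, log2 ratio 1.23) and 1 with a floor of 1 UMI. The 2 lower genes there became 1 with cells weighted equally, 1 without the top cell, 0 by the interval rule and 0 at 50 UMIs. For stroma over lymphocytes, the 2 higher LCWE genes became 1 by the interval rule, and the 0 higher PBS genes became 1 with stromal classes weighted equally and 1 with a floor of 1 UMI. Leaving out Ackr1-positive BEC was an alternative chosen after seeing the data. PBS lymphocytes (92 cells) and LCWE smooth muscle (93 cells) limit every comparison that uses them.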

Other observations

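The PBS cells that the authors placed in the class of regulatory and activated CD4 T cells were 11, with 12 Il2ra UMIs (176 CPM, 91.1 to 308) and 4 Il2 UMIs. Their Il2 level was 58.8 CPM against 12.2 in the LCWE cells of that class, 4.81-fold higher in PBS (1.17 to 14.9). Il13 showed 13 UMIs in the 75 PBS and 8 in the 2198 LCWE T, NK and innate lymphoid cells. The PBS cells of this kind are few, and their values are given as counts from 1 pool.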
